A study of Rattus norvegicus with 6 samples.

Results

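The 38 genes described here encode factors that make ribosomes in the nucleolus: subunits and a co-factor of RNA polymerase I, core proteins of the small nucleolar ribonucleoprotein particles (snoRNPs), nucleolar scaffold proteins and chaperones, and assembly factors of the small and large ribosomal subunits. They were taken by gene symbol, from a list drawn up with earlier results of these data known, out of a table of 33350 gene models, and each symbol was found. All 38 reached the mean of at least 1 FPKM (a read number per gene, corrected for the length of the gene and the depth of the library) that was asked of a gene before testing, as did 12198 gene models in all. Nhp2 reached it through 1 library alone (below). Where a symbol had several models, the one with the highest mean was used, which concerned Nhp2.

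Ribosome production begins in the nucleolus, where RNA polymerase I copies the ribosomal DNA into a long precursor RNA. Box C/D snoRNPs guide the methylation of riboses in that precursor, box H/ACA snoRNPs guide the change of uridine to pseudouridine, and a large set of helicases, nucleases, GTPases and scaffold proteins cuts the precursor and packs it with ribosomal proteins into the small and the large subunit. The pathway is one of the largest expenses of a growing cell, and its genes are known for being expressed in step with growth.

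RNA-seq covered 6 libraries, all of rat PC12 cells by their labels, a line started from an adrenal pheochromocytoma. In the 3 EC libraries (EC1 to EC3) the cells had been treated with exosomes (small secreted vesicles) from control endothelial cells, and in the 3 EN libraries (EN1 to EN3) with exosomes from endothelial cells that expressed NTN1, the axon guidance protein netrin-1, at a high level. The labels give no dose, duration or origin of the endothelial cells, and no library without exosomes was analysed here. Whether the replicates were separate cultures is not stated, so each p-value speaks of the spread among these 6 samples, possibly a technical one.

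The reads worked back from the FPKM values numbered 15296193 to 16165804 per library in EC and 16654025 to 19626012 in EN, so that every EN library was deeper than every EC library. Mitochondrial genes took 5.43% to 6.09% of the reads in EC and 4.40% to 5.5% in EN. The defining chromaffin markers were low: Th averaged 1.47 FPKM, Dbh 0.196 and Chga 0.037, only 2 of 12 listed chromaffin genes reached the minimum for testing, and Pnmt and Hand2 had no read in any library. Schwann cell and glial markers were more abundant, with 9 of 10 tested and Sox10 at 103.6 FPKM. In limma 5 of the 9 were lower in EN (55.6%, against 7.14% of all tested genes) and 1 was higher (11.1%, against 7.24%). Egr2, S100b and Pmp22 were among those lower in EN, and Ngfr was higher. The summed level of the Schwann cell and glial markers was 469.2 to 479.6 FPKM in EC and 414.4 to 447.7 in EN. Of the fibroblast markers 4 of 9 and of the endothelial markers 3 of 9 were tested, and none of these passed in limma (0 fibroblast and 1 endothelial gene at an unadjusted p under 0.05, and 0 and 1 in limma voom on the reads). Their summed levels were 109.8 to 115.1 FPKM in EC and 109.1 to 112.1 in EN for fibroblasts, with Dcn near 0, and 6.43 to 7.21 in EC and 7.15 to 7.87 in EN for endothelial cells, with Cldn5 at 0. The part of depth, mitochondrial share and these markers in the results that follow was not tested. In bulk samples, a change in the share of a cell type and a change in RNA per cell cannot be told apart.

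EN was set against EC to ask how transcripts of the recipient cells differed with the NTN1 level of the cells that made the exosomes. Of the 38 ribosome biogenesis genes, 7 were higher in EN, none was lower and 31 did not pass the test (limma on log2(FPKM + 1), two-sided, Benjamini-Hochberg adjusted p under 0.05 over all tested genes). That is 18.4% higher, against 7.24% of all tested genes, while 7.14% of all tested genes were lower and 14.4% passed in either direction. The 7 were Fbl, Dkc1, Bop1, Gar1, Rrp1, Ubtf and Ebna1bp2. At an unadjusted p under 0.05, 14 were higher and 1 lower in limma, against 1965 higher and 1973 lower of all 12198 tested genes. Limma voom on the whole reads called 10 higher and 0 lower, and 2369 of the 12198 in either direction. The median difference over the 38 was 0.12 on the log2(FPKM + 1) scale, with 30 genes positive and 8 negative, against a median of -0.0028 and 49.4% positive among all tested genes. All EN libraries lay above all EC libraries for 17 of the 38 (44.7%, against 18.6% of all tested genes) and below them for 1, Nop10 (2.63%, against 19.4%). For the other 20 the groups overlapped.

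Most of these differences were small, and the number past the test depended on single libraries. Only 1 gene passed without EC2, EC3 or EN1 and 2 genes without EN2, but 6 were higher without EC1 and 8 without EN3. The genes past the test over the whole table moved likewise, from 1754 to between 338 and 446 without any of the first 4 of these libraries. The median of the 38, in contrast, stayed between 0.105 and 0.139 with each library left out in turn. Nhp2 and Ebna1bp2 differed many times over between libraries of 1 group (below), and without them 6 of 36 genes (16.7%) were higher and the median was 0.11.

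**Figure D1:**
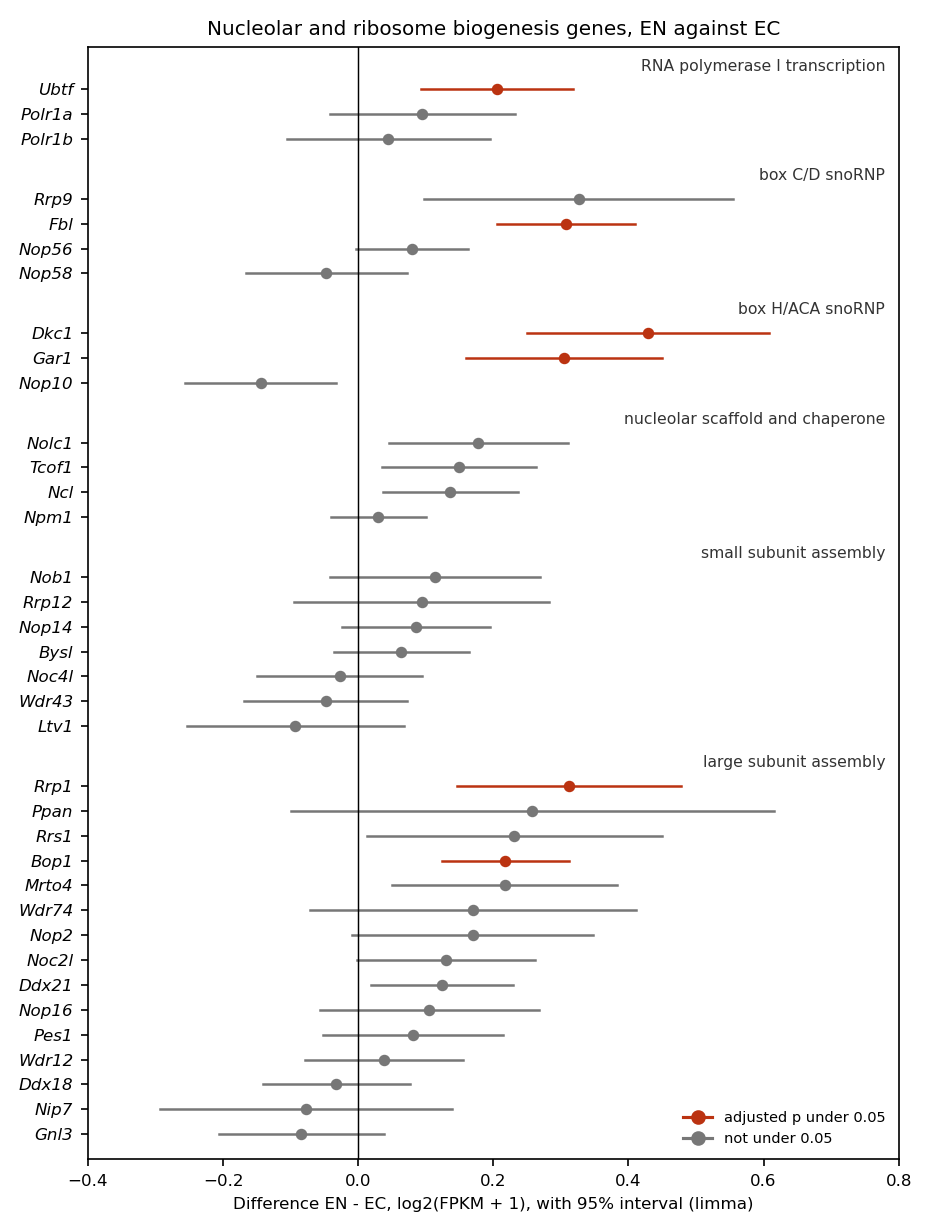
Difference between EN and EC (horizontal axis, EN minus EC on the log2(FPKM + 1) scale) for 36 of the 38 genes, grouped by role; points are limma estimates, lines their 95% intervals, red marks an adjusted p under 0.05. Nhp2 and Ebna1bp2, at 1.91 and 2.87, lie off this scale and are left out; most points lie right of 0, and the 6 red points run from 0.21 (Ubtf) to 0.43 (Dkc1).

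The promoters of these genes were searched for letters known from growth-related promoters. The sequences are RefSeq windows of the GRCr8 assembly, from 250 bases before to 50 after each start, and 35 of the 38 genes had one (all but Bop1, Rrs1 and Wdr43). CACGTG, the E-box bound by MYC-type and related factors, was found in 11 of the 35 (31.4%), against 9.39% of 8851 tested genes with a window and 6.42% of all 33469 windows. CCGGAAGT, a core of the type bound by ETS factors, was found on either strand in 13 (37.1%), against 8.97% and 3.81%. GCGCATGC, the type bound by NRF1, was found in 3 (8.57%: Nob1, Noc2l and Npm1), against 5.68% and 2.47%. Both an E-box and the ETS type were present in 5 genes, Bysl, Dkc1, Ebna1bp2, Fbl and Ltv1 (14.3%, against 0.78% and 0.347%), and none of the 3 in 14 (40%, against 77.8% and 88.1%). The median GC content of the windows was 55.7% in the 35, 61.3% in tested genes and 51.7% in all. Of the 6 genes that rose and had a window, 4 held an E-box, 4 the ETS type and 1, Ubtf, neither; of the 29 that did not pass, 7 held an E-box and 9 the ETS type.

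Stretches upstream of 4 of the genes that rose are shown because they carry these letters, with the E-box or the ETS type in capitals (ACTTCCGG is CCGGAAGT read on the other strand). Each is written 5′ to 3′ on the strand of the gene and ends at the base before the start. The Dkc1 stretch (GRCr8, chrX:157751451-157751650, plus strand) has an E-box 184 bases and ETS-type matches 159 and 60 bases before the start. The table's own build, Rnor_6.0, places Dkc1 on the minus strand. The Fbl stretch (chr1:92597307-92597406, plus strand) has its ETS-type match 67 bases before the start, and the E-box of Fbl lies outside it, 21 bases after the start. The Gar1 stretch (chr2:221056750-221056849, minus strand) has an ETS-type match 54 bases before the start, and the Rrp1 stretch (chr20:10260480-10260579, plus strand) an E-box 16 bases before it. No match in these stretches overlaps another, and a match describes the letters only.
Dkc1: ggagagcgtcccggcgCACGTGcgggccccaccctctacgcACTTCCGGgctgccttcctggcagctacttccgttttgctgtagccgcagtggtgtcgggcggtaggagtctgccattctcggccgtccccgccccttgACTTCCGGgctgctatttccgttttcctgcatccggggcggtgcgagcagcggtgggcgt
Fbl: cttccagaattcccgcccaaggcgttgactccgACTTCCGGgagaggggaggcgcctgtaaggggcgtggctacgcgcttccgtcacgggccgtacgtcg
Gar1: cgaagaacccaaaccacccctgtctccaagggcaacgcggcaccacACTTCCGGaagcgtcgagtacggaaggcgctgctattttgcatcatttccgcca
Rrp1: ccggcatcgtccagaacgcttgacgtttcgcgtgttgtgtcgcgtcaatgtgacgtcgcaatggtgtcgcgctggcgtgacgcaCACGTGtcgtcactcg

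**Figure D2:**
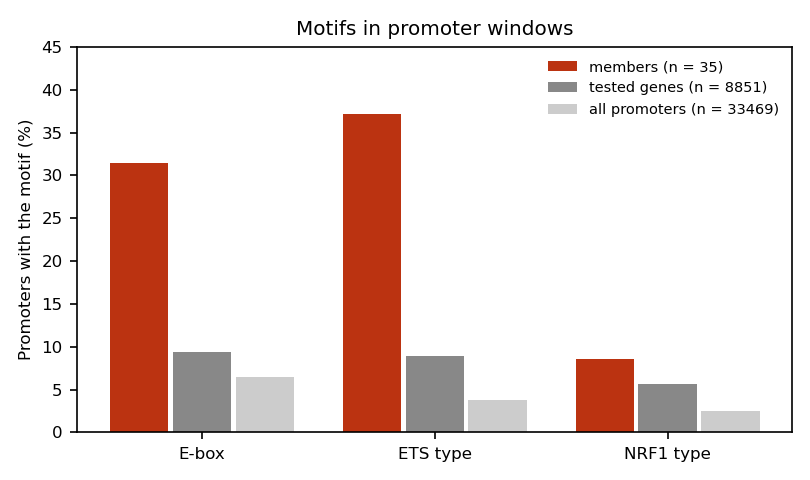
Share of promoter windows (vertical axis, percent, from 0) that hold each of the 3 motifs, for the ribosome biogenesis genes, for tested genes and for all windows. The E-box and ETS-type shares are 31.4% and 37.1% in the 35 genes, against 9.39% and 8.97% in tested genes; the NRF1-type bars lie closer together.

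RNA polymerase I transcription was represented by Ubtf and 2 polymerase subunits. Ubtf encodes the upstream binding factor that coats ribosomal DNA and keeps it open for the polymerase (Rnor_6.0, chromosome 10, 90250275 to 90265017). It was at 39.0, 39.5 and 38.6 FPKM in EC1 to EC3 and at 47.9, 44.5 and 43.1 in EN1 to EN3. The EC libraries lay close together and every EN library was above them, EN1 the most. Ubtf rose 1.16-fold in the mean (log2 difference 0.21, SE 0.048, limma adjusted p = 0.0343). The call held only without EN3, and the adjusted p was 0.065 without EC1, 0.10 without EC2, 0.109 without EC3, 0.084 without EN1 and 0.10 without EN2.

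Polr1a, the largest catalytic subunit, was at 10.2, 9.90 and 9.83 FPKM in EC and at 10.1, 11.4 and 10.7 in EN. Polr1b, the other catalytic subunit, was at 11.6, 10.7 and 11.9 FPKM in EC and at 11.2, 12.4 and 11.7 in EN. For both the groups overlapped, with log2 differences of 0.10 and 0.04 and adjusted p of 0.30 and 0.667 in limma. Of 11 other polymerase I factors tested, 1 was lower and none higher in limma (3 higher at an unadjusted p under 0.05, and 1 in voom). The share lower was 9.09%, against 7.14% of all tested genes. Taf1a, a subunit of the promoter selectivity factor, went from 6.49 ± 0.247 to 4.67 ± 0.5 FPKM (SD over n = 3; log2 difference -0.40, limma adjusted p = 0.0259). Taf1a did not pass without EC1, EC2, EC3 or EN1, with an adjusted p of 0.093 at most.

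Among the box C/D snoRNP proteins, Fbl passed the test with every choice of 5 libraries, which none of the other 6 genes that rose did. Fibrillarin, its product, is the methyltransferase of these particles (chromosome 1, 85103519 to 85112619). It was at 49.8, 47.4 and 45.7 FPKM in EC and at 60.4, 58.1 and 59.0 in EN. The gap between the groups was wider than the spread within either. Fbl rose 1.24-fold (log2 difference 0.31, SE 0.043, limma adjusted p = 0.00953), and the adjusted p was 0.049 at most with 1 library left out. The end of Fbl overlaps a model of Dyrk1b on the same strand, which measured 3.89 ± 0.347 FPKM in the EC libraries and 5.0 ± 0.050 in EN (SD over n = 3) and did not pass (limma adjusted p = 0.0507).

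Rrp9, a protein specific to the U3 particle that guides early cuts of the precursor, was at 18.9, 18.2 and 15.2 FPKM in EC and at 22.1, 24.1 and 19.9 in EN. All EN libraries were above all EC libraries, but EC3 and EN2 widened the spread. Its log2 difference was 0.33 (SE 0.097) with a limma adjusted p of 0.066, and the adjusted p was 0.045 without EN3. Nop56 and Nop58, the paired scaffold proteins of the particle, differed in sign. Nop56 had a mean of 59.1 ± 1.32 FPKM in EC and 62.5 ± 0.707 in EN, and Nop58 of 78.4 ± 3.27 and 75.9 ± 3.84 (SD over n = 3). Neither passed (limma adjusted p of 0.168 and 0.562). Of 10 other snoRNP assembly factors tested, among them the ATPases Ruvbl1 and Ruvbl2, none passed in limma (2 higher at an unadjusted p under 0.05, and 1 in voom), and their median log2 difference was 0.01.

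Apart from Nhp2 and Ebna1bp2, the largest difference of the set was in the box H/ACA group. Dkc1 encodes dyskerin, the pseudouridine synthase, which also stabilises telomerase RNA (chromosome X, 155844857 to 155862475). It was at 38.7, 33.1 and 32.3 FPKM in EC and at 49.1, 47.5 and 44.2 in EN. EC1 was the highest of its group and still below every EN library. Dkc1 rose 1.35-fold (log2 difference 0.43, SE 0.076, limma adjusted p = 0.0183). Gar1, a dyskerin partner needed for release of the modified RNA (chromosome 2, 235250454 to 235257731), was at 8.79, 9.80 and 9.78 FPKM in EC and at 12.4, 11.7 and 11.6 in EN. The groups did not overlap, and Gar1 rose 1.26-fold (log2 difference 0.30, SE 0.062, limma adjusted p = 0.0243). Both calls were lost without EC2, EC3, EN1 or EN2, where the adjusted p was 0.063 to 0.072 for Dkc1 and 0.069 to 0.081 for Gar1.

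Nop10, the smallest protein of the H/ACA core, was the one gene of the 38 with all EN libraries below all EC libraries. It was at 43.4, 42.8 and 43.9 FPKM in EC and at 41.0, 36.9 and 39.7 in EN. The log2 difference was -0.14 (SE 0.047), with a limma adjusted p of 0.0854, so the difference did not pass. Among the 3 core genes with steady libraries, Dkc1 and Gar1 thus had positive differences past the test and Nop10 a negative one that did not pass.

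Nhp2, the remaining H/ACA protein (chromosome 10, 34975708 to 34979082), stood apart from every other gene of the set. It was at 0.682, 1.09 and 0.652 FPKM in EC and at 0.944, 0.980 and 79.3 in EN. These values rest on 7, 11 and 7 reads in EC and on 11, 13 and 875 in EN, so that 1 library, EN3, carried nearly all reads. Through that library alone Nhp2 reached the minimum for testing. The log2 difference was 1.91 (SE 1.35, limma adjusted p = 0.367), and only 4 of the 12198 tested genes had a wider spread within the groups. A further model of the same symbol, at 37069344 to 37072733 on chromosome 10, had 1 read in all libraries together, in EN1. Neighbouring genes, named after their values were seen, also varied. Hnrnpab was at 9.77, 4.32 and 29.1 FPKM in EC and at 68.0, 52.9 and 47.6 in EN. All its EN libraries lay above all its EC libraries, and Hnrnpab passed (log2 difference 2.24, SE 0.561, limma adjusted p = 0.0429). The call held only without EC3, and the adjusted p was 0.124 at most with 1 library left out. Rmnd5b was at 5.93 FPKM in EN2 and 0.201 to 0.431 in the other 5 libraries. Hnrnpab and Rmnd5b have a further model of their symbol on that chromosome too. Those models had 0 to 3 reads per library for Hnrnpab and 0 for Rmnd5b. Ebna1bp2, which also varied within the groups (below), had 1 model. The handling of reads that fit several copies is not stated, and its part in these values was not tested.

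**Figure D3:**
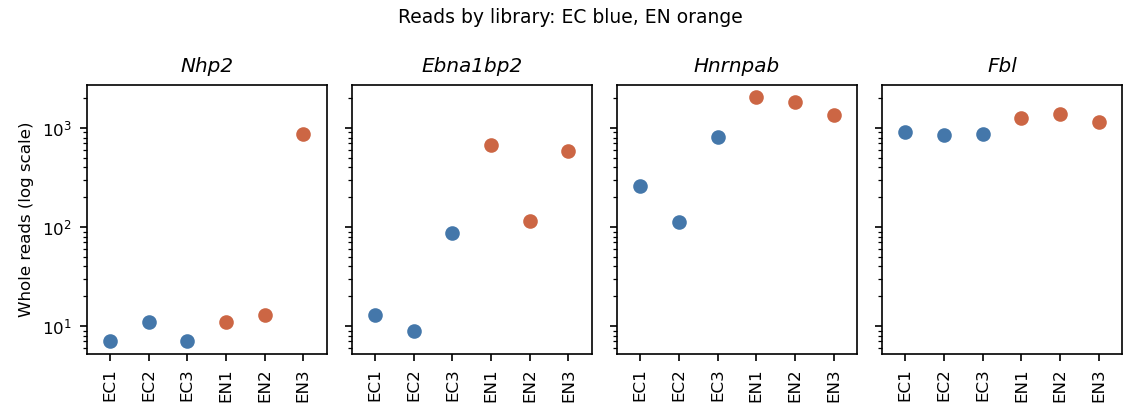
Reads worked back from FPKM (vertical axis, log scale) in each of the 6 libraries for Nhp2, its neighbour Hnrnpab, Ebna1bp2 and, for comparison, Fbl; blue points are EC and orange points EN libraries. Nhp2 has 7 to 13 reads in 5 libraries and 875 in EN3, and Ebna1bp2 9 to 86 in EC and 116 to 675 in EN, while the Fbl points lie close together.

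The nucleolar scaffold and chaperone group held the most abundant genes of the set, Npm1 and Ncl, and the differences of its 4 genes were all positive. Npm1 encodes nucleophosmin, the histone and ribosome chaperone of the outer nucleolus, and Ncl encodes nucleolin, which binds nascent precursor RNA. Npm1 was at 431, 432 and 427 FPKM in EC and at 438, 440.0 and 438 in EN. Ncl was at 277, 273 and 263 FPKM in EC and at 285, 300.2 and 308 in EN. In both, every EN library was above every EC library, by a narrow margin for Npm1 (log2 difference 0.03, limma adjusted p = 0.524) and a wider one for Ncl (0.14, adjusted p = 0.0728).

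Nolc1, a snoRNP chaperone that shuttles between the nucleolus and Cajal bodies, was at 50.7, 44.9 and 44.6 FPKM in EC and at 52.5, 52.3 and 53.9 in EN. Tcof1, or treacle, which links polymerase I to ribosomal DNA, was at 20.5, 19.8 and 19.1 FPKM in EC and at 21.8, 23.0 and 21.6 in EN. The groups did not overlap for either gene, though EC1 came near the EN libraries for Nolc1. Their log2 differences were 0.18 and 0.15, and neither passed in limma (adjusted p of 0.0768 and 0.0816). Nolc1 passed without EC1. None of the 4 genes of this role thus passed in limma (3 higher at an unadjusted p under 0.05, and 3 in voom). All 4 had every EN library above every EC library, as did 18.6% of all tested genes.

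**Figure D4:**
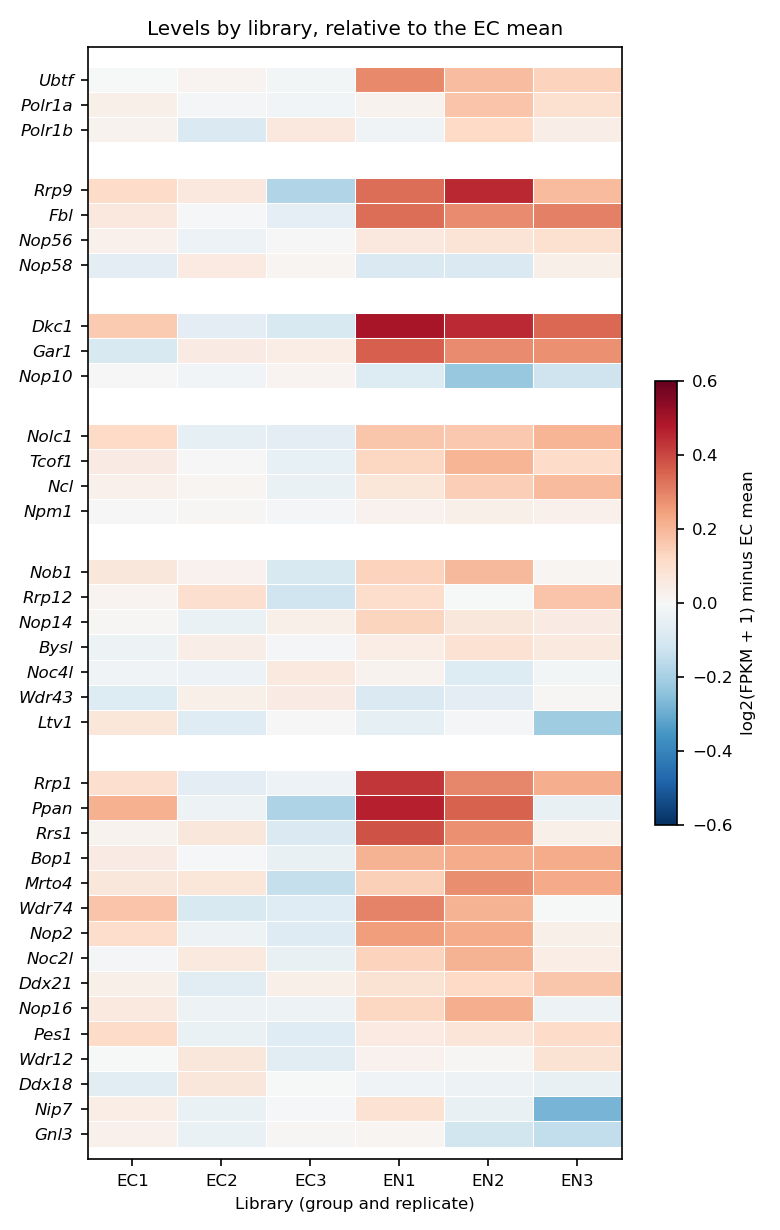
Level of 36 genes in each library (columns) as log2(FPKM + 1) minus the mean of the 3 EC libraries, with the genes grouped by role as in the plot of differences; red is above and blue below the EC mean, and Nhp2 and Ebna1bp2 are left out. The EN columns are mostly red, paler in EN3 than in the other EN libraries for Rrp1, Ppan and Rrs1, and the small subunit rows are among the palest.

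Assembly factors of the small subunit had the smallest median difference of the 6 roles. None of the 7 passed in limma, at an unadjusted p under 0.05 or in voom, their median log2 difference was 0.06 and their range -0.09 (Ltv1) to 0.11 (Nob1). Rrp12, a repeat protein of late precursors with the lowest mean of the 38 over all 6 libraries (Nhp2 and Ebna1bp2 were lower in EC), was at 8.21, 8.76 and 7.37 FPKM in EC and at 8.83, 8.07 and 9.25 in EN. These values overlapped. Nop14 (18.0 ± 0.505 FPKM in EC and 19.2 ± 0.610 in EN), of the early processome, and Bysl (21.2 ± 0.579 and 22.2 ± 0.406), which binds late precursors, had all EN libraries above all EC libraries (SD over n = 3). The values of Nob1, the nuclease of the last cut, were 26.3 ± 1.61 and 28.6 ± 1.89, of Ltv1, a late assembly factor, 22.9 ± 1.19 and 21.5 ± 1.65, of Noc4l, a partner of Nop14, 15.7 ± 0.614 and 15.4 ± 0.586, and of Wdr43, a processome subunit, 36.2 ± 1.81 and 34.9 ± 1.28 FPKM.

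Of 47 other small subunit factors tested, 3 were higher (6.38%), 2 lower (4.26%) and 42 did not pass in limma, with a median of 0.04. These shares lay below those of all tested genes (7.24% and 7.14%). Wdr46, a processome subunit, went from 11.9 ± 0.845 to 16.8 ± 0.359 FPKM (SD over n = 3; log2 difference 0.46, limma adjusted p = 0.00757) and passed with each library left out. Utp11, also of the processome, went from 49.1 ± 1.61 to 40 ± 0.889 FPKM (log2 difference -0.29, limma adjusted p = 0.00953, and 0.0502 without EC2). Bud23, a methyltransferase of the small subunit RNA, rose by 0.32, and Pdcd11, which binds the precursor for both subunits, by 0.18 on the log2 scale (limma adjusted p of 0.0213 and 0.0259). Both calls were lost without EC2, EC3, EN1 or EN2, and that of Pdcd11 also without EC1, with an adjusted p of 0.083 at most for Bud23 and 0.099 for Pdcd11.

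The large subunit group, with 16 genes, had 3 past the test, all higher, and a median log2 difference of 0.15. That is 18.75% higher, against 7.24% of all tested genes. Bop1 (chromosome 7, 117514533 to 117538342), Pes1 and Wdr12 form the PeBoW complex, which is needed for processing of the large subunit RNA. Bop1 was at 33.5, 32.2 and 31.4 FPKM in EC and at 37.6, 37.9 and 37.9 in EN. The EN libraries were almost level and all above EC, and Bop1 rose 1.17-fold (log2 difference 0.22, SE 0.040, limma adjusted p = 0.0197). The call was lost without EC2, EC3, EN1 or EN2 (adjusted p of 0.063 to 0.078). Models of Mroh1 and Scx overlap Bop1 on the other strand, and whether counting used strand is not stated.

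The partners of Bop1 did not pass. Pes1 was at 39.6, 35.4 and 34.7 FPKM in EC and at 37.9, 38.5 and 39.5 in EN, and Wdr12 at 27.6, 29.0 and 26.3 in EC and at 28.1, 27.7 and 29.4 in EN. The groups overlapped for both, with log2 differences of 0.08 and 0.04 (limma adjusted p of 0.356 and 0.628).

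Rrp1 and Ebna1bp2 encode nucleolar factors of early large subunit particles. Rrp1 (chromosome 20, 10981998 to 10993280) was at 24.6, 21.8 and 22.3 FPKM in EC and at 31.1, 28.2 and 26.7 in EN. The groups did not overlap, with EC1 nearest to EN, and Rrp1 rose 1.25-fold (log2 difference 0.31, SE 0.070, limma adjusted p = 0.0312). The adjusted p was 0.107 without EC2, 0.103 without EC3, 0.084 without EN1 and 0.095 without EN2.

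Ebna1bp2 (chromosome 5, 137670123 to 137674802) was at 0.650, 0.459 and 4.11 FPKM in EC and at 29.7, 4.49 and 27.3 in EN. These rest on 13, 9 and 86 reads in EC and on 675, 116 and 588 in EN. EC3 and EN2 lay next to each other, while the other libraries of the 2 groups were far apart. The log2 difference was 2.87 (SE 0.752, limma adjusted p = 0.0479), the largest of the 12198 tested genes, and 63 genes had a wider spread within the groups. The call held only without EN2, and the adjusted p was 0.069 to 0.144 without EC1, EC2, EC3, EN1 or EN3, and 0.132 with limma voom on the whole reads.

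Among the other large subunit factors of the set, Mrto4, which holds the place of a stalk protein on the precursor, was at 30.8, 30.9 and 26.5 FPKM in EC and at 32.5, 35.8 and 34.5 in EN. Ddx21, an RNA helicase that also binds ribosomal DNA, was at 47.6, 44.3 and 47.7 FPKM in EC and at 49.5, 50.6 and 52.2 in EN. In both, all EN libraries were above all EC libraries, and neither passed in limma (log2 differences of 0.22 and 0.12, adjusted p of 0.0827 and 0.107).

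The groups overlapped for the remaining 9. Ppan, Rrs1, Wdr74, Nop2, Noc2l and Nop16 had log2 differences of 0.26, 0.23, 0.17, 0.17, 0.13 and 0.11. Rrs1, which helps to build the small RNA of the large subunit into the particle, was at 21.8, 22.5 and 20 FPKM in EC and at 28.2, 26.1 and 22.0 in EN, so EN3 lay within the range of EC. Without that library Rrs1 passed in limma. Ddx18, Nip7 and Gnl3 (nucleostemin, a GTPase) had log2 differences of -0.03, -0.08 and -0.08. For Nip7, EN3 was the lowest of the 6 libraries at 20.5 FPKM, against 24.3 to 26.8 in the others.

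Among other large subunit factors, 8 of 43 tested were higher (18.6%) and 1 was lower (2.33%) in limma, with a median of 0.05. Over all tested genes the shares were 7.24% and 7.14%. Nop53, a late nucleolar factor, went from 24.7 ± 1.5 to 32.2 ± 0.879 FPKM (SD over n = 3; log2 difference 0.37, limma adjusted p = 0.0102, and 0.0518 without EN2). Eif6, which keeps immature large subunits from joining small ones, went from 77.9 ± 0.636 to 90.6 ± 2.57 FPKM, Pelp1, a scaffold of a late particle, from 20.8 ± 0.895 to 26.7 ± 1.83, and the helicase gene Ddx54 from 24.1 ± 2.08 to 31.7 ± 1.86 (limma adjusted p of 0.0150, 0.0188 and 0.0205). These 3 calls were lost without EC2, EC3, EN1 or EN2, with an adjusted p of 0.075 at most. The lower one was Brix1, a factor of early particles, at 24.1 ± 0.903 and 20 ± 0.609 FPKM (log2 difference -0.25, limma adjusted p = 0.0205, and 0.081 at most without EC2, EN1 or EN2).

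Of 25 tested nucleases and co-factors that trim ribosomal RNA, 3 were higher, 3 lower and 19 did not pass in limma, with 18 differences positive, 7 negative and a median of 0.08. The shares were 12% higher and 12% lower, against 7.24% and 7.14% of all tested genes. Exosc6 and Exosc3, subunits of the RNA exosome (a nuclease complex unrelated to the vesicles used as treatment), rose by 0.31 and 0.27 on the log2 scale, while the subunit gene Exosc9 and Rpp40, of ribonuclease P and MRP, each fell by 0.25 (limma adjusted p of 0.0210, 0.0259, 0.0213 and 0.0281). Each of the 4 calls was lost without EC2, EN1 or EN2, and all but that of Exosc6 also without EC3. Exosc3 and Rpp40 did not pass without EC1 either, and the adjusted p of the 4 was at most 0.097.

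Over all 136 other ribosome biogenesis genes tested, of 142 listed, 14 were higher (10.3%), 7 lower (5.15%) and 115 did not pass, with a median of 0.04. In either direction 15.4% passed, near the 14.4% of all tested genes (7.24% higher and 7.14% lower). The number higher was 1 to 3 without EC2, EC3, EN1 or EN2, and the number lower 0 to 2. Of 8 genes of the MYC network tested, which includes regulators of ribosome biogenesis genes, none passed in limma or voom (1 was higher at an unadjusted p under 0.05), and their median was 0.0022. Among 21 proliferation genes 1 was lower and none higher in limma. At an unadjusted p under 0.05, 8 were higher and 2 lower in limma, against 1965 and 1973 of all 12198 tested genes. In voom 3 were higher and 1 lower. All EN libraries lay above all EC libraries for 7 (33.3%, against 18.6% of all tested genes) and below them for 3 (14.3%, against 19.4%). Bub1, a mitotic checkpoint kinase, went from 49.9 ± 0.879 to 44.5 ± 1.41 FPKM (SD over n = 3; limma adjusted p = 0.0385, and 0.122 at most without EC1, EC2, EC3, EN1 or EN2).

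**Figure D5:**
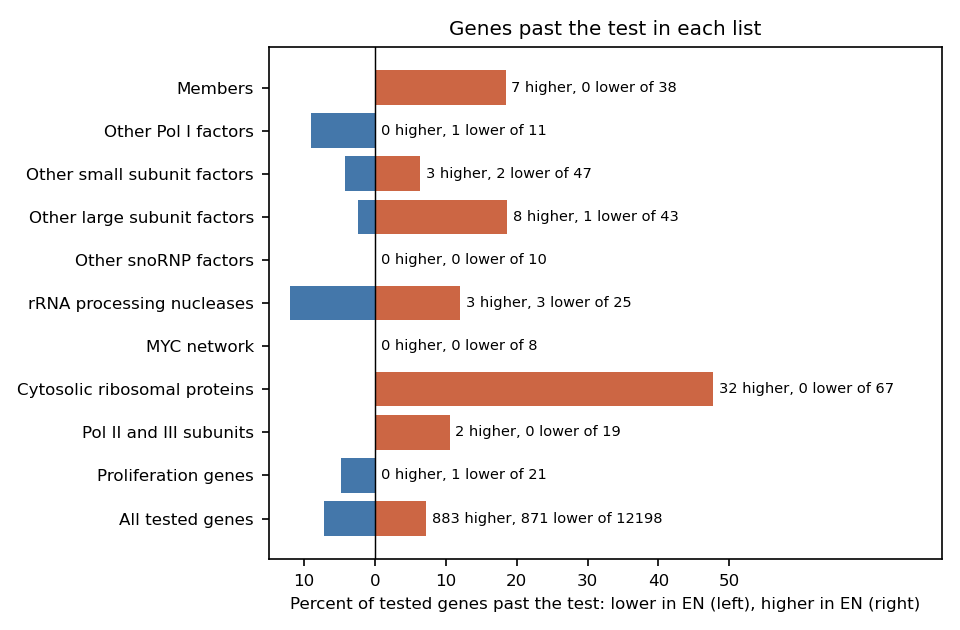
Share of tested genes past the test in each list (horizontal axis, percent), with genes lower in EN drawn to the left and genes higher in EN to the right of 0, and the numbers beside each bar. The 38 genes have 7 higher and 0 lower, cytosolic ribosomal proteins 32 higher and 0 lower of 67, and all tested genes 883 higher and 871 lower of 12198.

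The products that these factors assemble were also read. Of 67 cytosolic ribosomal protein genes tested, 32 were higher (47.8%, against 7.24% of all tested genes) and none lower in limma. At an unadjusted p under 0.05 in limma 1 was lower, and 1 in voom. The median log2 difference was 0.20. Rpl27a went from 200.7 ± 6.48 to 254 ± 8.06 FPKM, Rps10 from 482 ± 7.11 to 584 ± 15.2 and Rps3 from 529 ± 32.7 to 690.2 ± 25.8 (SD over n = 3; limma adjusted p of 0.00616, 0.00732 and 0.00957), and these 3 passed with each library left out. The number higher was 4 without EC2 or EC3, 6 without EN1 and 3 without EN2, and it was 19 with a median of 0.13 after quantile normalization. Ribosomal protein genes have many near-identical copies, so their reads may be divided. Subunits of RNA polymerases II and III had 2 of 19 higher (10.5%, against 7.24% of all tested genes). These were Polr2e (log2 difference 0.36) and Polr3d (0.22), with limma adjusted p of 0.0205 and 0.0484. Neither passed without EC2, EC3, EN1 or EN2 (0.143 at most), nor Polr3d without EC1.

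The libraries of a group were not alike across the 38 genes. EC1 was the highest EC library for 19 of the 38 (50%, against 36.2% of all tested genes), and EC3 the lowest for 20 (52.6%, against 35.2%). EN3 was the lowest EN library for 18 (47.4%, against 37.3%). The summed level of 36 genes, without Nhp2 and Ebna1bp2, was 1724, 1691 and 1659 FPKM in EC and 1812, 1818 and 1794 in EN. The groups did not overlap in this sum, in which Npm1 and Ncl, the most abundant genes, weigh most. By role, the sums overlapped for the large subunit genes (441.5 FPKM in EC1, 440.5 in EN3). For the small subunit genes EN3 was the lowest library (148.0, against 148.2 to 148.9 in EC). The sums of the other roles did not overlap, and in these too the abundant genes weigh most. In RNA polymerase I transcription that gene was Ubtf, while the groups overlapped for Polr1a and Polr1b. The median difference from the EC mean over the 36 genes was 0.033 in EC1 and 0.055 in EN3 on the log2 scale. The median SD within groups was 0.067 on the log2 scale for the 38, against 0.087 for all tested genes, with Nhp2 and Ebna1bp2 far above it.

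Several of these genes host small nucleolar RNAs in their introns, the guides of the same particles. The table has 21 such models inside Nop56, Nop58, Ncl, Wdr43, Ppan and Gnl3, on the strand of the host. They held 433 reads in all 6 libraries together. Of these, 10 reached the minimum for testing and none passed in limma or voom (1 at an unadjusted p under 0.05). How far such short RNAs enter these libraries was not tested.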

How the data were processed

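The authors deposited 1 table of FPKM values for 33350 gene models, with the coordinates and length of each. The Rnor_6.0 build and the aligner HISAT2 2.0.5 are named in the submitters' processing notes, and per the labels' protocols libraries were made from total RNA with an Illumina TruSeq RNA kit. The counting tool, annotation release, strand setting and filters were not given in the sources used here. Columns labelled PC12 other than those of the libraries analysed numbered 0. FPKM times gene length gave whole reads for 100% of non-zero values (within 0.001), so reads and depth were worked back from it.

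Differences between EN and EC were tested on log2(FPKM + 1) with limma (3.58.1, under R 4.3.3), which understates changes of low genes, with a mean-variance trend and group as the only term. Genes needed a mean of at least 1 FPKM over the 6 libraries, and a gene passed at a two-sided Benjamini-Hochberg adjusted p under 0.05 over all 12198 tested genes. Folds are ratios of mean FPKM. The procedure was checked on simulated data. These were drawn without shifts shared by the genes of a library, so the check does not bear on the dependence on single libraries. The 38 genes, their roles and the other lists were chosen with earlier results of these data known. Of 353 list entries, 323 matched a symbol, 12 an older symbol in a RefSeq table and 18 nothing. Values in every library are given for genes past the test, for the 10 smallest adjusted p, for the 2 most and 2 least abundant genes and for each role, and up to 4 genes past the test are named per other list. Values by library of other genes of the set were chosen after they were seen.

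Same-numbered EC and EN libraries did not deviate together (correlations of 0.088, -0.095 and -0.020 for numbers 1 to 3), so the numbers were not taken as pairs. Alternatives were pseudocounts of 0.1 and 0.5, a filter at 5 FPKM or none, quantile normalization, median centring, the TPM scale, removal of the trend with gene length, the replicate block, leaving out each library, array weights, no variance trend, limma voom on whole reads and protein-coding models only. Leaving out Nhp2 and Ebna1bp2 was added after the data were seen. Promoter windows came from RefSeq (GRCr8), a build other than that of the table, and no coordinate was carried between them. Values of some marker genes are not reported here.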

Additional observations from a re-analysis of the deposited data

How the results depend on the processing

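Of 722 values of single genes of the set under 19 alternatives, 659 kept their direction and their side of the threshold, 24 came past it, 35 no longer passed and 4 changed sign. All 35 losses fell on the 7 genes past the test, and most of the 659 belong to the 31 genes that did not pass. The sign changes came with 1 library left out: Noc4l ranged from -0.051 to 0.0025 on the log2 scale (0.0025 without EC3, 0.0002 without EN2), Nip7 from -0.162 to 0.0242 (without EN3) and Ddx18 from -0.0665 to 0.0023 (without EC2). Genes of the set that were higher numbered 3 without a filter, 4 without the variance trend, 17 with array weights and 1 to 8 with 1 library left out, and 10 in limma voom on the reads. The number lower was 1, Nop10, with the length trend removed or with array weights, and 0 with each library left out. Genes past the test in the whole table numbered 866 without a filter, 1019 without the trend, 3849 with array weights and 338 to 2059 with 1 library left out. Of these, 39.7% were higher without EN1 and 41.6% without EN2, against 50.3% with all libraries. Other ribosome biogenesis genes numbered 9, 9, 34 and 1 to 16 higher under the same settings in turn, and 3 lower without a filter, 17 with array weights and 0 to 7 with 1 library left out. The median of the set lay between 0.105 and 0.156 under every alternative. With the replicate block, 8 genes of the set were higher (Rrp9 was added) and 1907 genes passed in all, and no other call within the set changed. With 3 libraries a group the precision is limited, and the low read numbers of Nhp2 and Ebna1bp2 limit what can be said of them.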
